A study of Homo sapiens with 18 samples.

Results

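The suppressors of cytokine signalling were followed here as 8 named genes, SOCS1 to SOCS7 and CISH. Their symbols were matched to the identifiers of the deposited count table, which held 63677 genes, and 7 of the 8 were found with counts. SOCS7 has an annotated identifier that was not matched in the table, so it was not analysed here. The table may hold SOCS7 under an older identifier, which was not looked for. All 7 matched members passed the filter on low counts and were among the 16678 genes tested.

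SOCS proteins are the classical negative feedback arm of cytokine signalling through Janus kinases (JAKs) and the STAT transcription factors. A cytokine receptor activates its JAKs, the JAKs phosphorylate a STAT, and the STAT switches on target genes that include some of the SOCS genes themselves. Each family member carries an SH2 domain, which binds phosphorylated tyrosines, and a SOCS box, which recruits elongins B and C and a cullin-5 ubiquitin ligase. SOCS1 and SOCS3 also carry a kinase inhibitory region with which they block JAKs directly, and in monocytes and macrophages both are known as genes induced during responses to bacterial products.

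The cells were THP-1, a human monocytic leukaemia line that grows in suspension, and the study asked what lowering TRAFD1 does to their transcripts at rest and after lipopolysaccharide (LPS), a bacterial outer membrane component. KD cells received 25 nM of a single siRNA against TRAFD1, SCR cells 25 nM of a non-targeting siRNA, and WT cells no siRNA. At 72 h after transfection, each condition was given LPS at 10 ng/ml or medium alone for 4 h, which made 6 groups of 3 libraries, with replicate numbers 1 to 3 for medium and 4 to 6 for LPS. For WT, the description of the series speaks of untreated cells and the protocol of transfection mix alone, so whether a difference between SCR and WT comes from the siRNA or from the transfection reagent cannot be told apart. The triplicates were not stated to be separate cultures, and p-values therefore measured the spread between these libraries, which may be technical.

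Libraries held 8206023 to 22344279 counts, and values are given as counts per 1000000 (CPM) with library totals scaled by the TMM method. TRAFD1 ran from 20.1 to 26.8 CPM in the unstimulated SCR libraries and from 5.37 to 11.6 CPM in the unstimulated KD libraries. It fell by 1.45 on the log2 scale without LPS (SE 0.23, adjusted p = 0.0277 by the quasi-likelihood test of edgeR with the Benjamini-Hochberg correction over all genes tested). With LPS the difference was −0.65 (SE 0.22, adjusted p = 0.262), which did not pass the test although the libraries did not overlap. Within KD, TRAFD1 rose by 0.73 with LPS (SE 0.23, adjusted p = 0.0456), with no overlap between the groups. TNF, IL1B, CXCL8 and NFKBIA rose with LPS in all 3 conditions, but not all from the same starting level. Without LPS, TNF was 2.74-fold higher in SCR than in WT (adjusted p = 9.44e-06) and NFKBIA 1.55-fold (adjusted p = 0.000371). The SCR response minus the WT response was −1.42 on the log2 scale for TNF (adjusted p = 0.00210) and −0.63 for NFKBIA (adjusted p = 0.0329). IL1B and CXCL8 passed the test in neither comparison. Of the 10 monocytic markers 9 were expressed above the filter, whereas CEBPA averaged at most 0.0513 CPM. Of the 10 markers of other cell types 4 were also above the filter, among them KRT8 of epithelium and COL1A1 of fibroblasts. The T cell marker CD3E and the erythroid marker HBB averaged at most 0.0200 CPM. NCAM1, a natural killer cell marker, averaged 9.04 to 11.5 CPM, and none of the 4 tested markers of other cell types passed the test with LPS in any condition.

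The regions just upstream of SOCS1 and CISH are shown because they carry matches to the motifs through which this family is known to be regulated. The 250 bases before the annotated gene starts of 6 members (GENCODE v44lift37, GRCh37) were searched on both strands for TTCNNNGAA, the palindrome recognised by most STATs, for the core of the interferon response element, which is GAAA, any 2 bases and GAAA again, and for the NF-kB motif. Sequences are written 5′ to 3′ on the strand of the gene, with matches in capitals. SOCS1 is from chr16:11350062-11350311 and CISH from chr3:50649206-50649455, both on the minus strand.
SOCS1: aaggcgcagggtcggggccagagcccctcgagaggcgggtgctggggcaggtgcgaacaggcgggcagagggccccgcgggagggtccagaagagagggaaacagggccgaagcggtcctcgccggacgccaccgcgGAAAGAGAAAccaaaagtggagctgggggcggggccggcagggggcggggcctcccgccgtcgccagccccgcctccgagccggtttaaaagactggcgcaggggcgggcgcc
CISH: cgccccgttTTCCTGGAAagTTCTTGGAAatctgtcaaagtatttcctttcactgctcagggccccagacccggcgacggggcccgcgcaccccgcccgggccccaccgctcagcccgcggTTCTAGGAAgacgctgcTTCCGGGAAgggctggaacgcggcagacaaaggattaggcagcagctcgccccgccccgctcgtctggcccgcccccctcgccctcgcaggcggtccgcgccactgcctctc

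SOCS1 held a single interferon response element core, at 113 to 104 bases before the start. CISH held 4 STAT palindromes, arranged as 2 neighbouring pairs. Among the 12486 protein coding genes tested, 5.638% had at least 1 STAT palindrome in this window and 2.819% had the interferon core. Only 0.008009%, a single gene that is CISH itself, had 4 or more STAT palindromes. This cut was set at the count of CISH, and 0.2403% of the genes had 2 or more. None of these 3 motifs was found in the windows of SOCS2, SOCS4, SOCS5 and SOCS6, and the NF-kB motif, present before 5.774% of genes, was found in none of the 6 windows. A match is a description of these letters, not of a bound site.

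**Figure D1:**
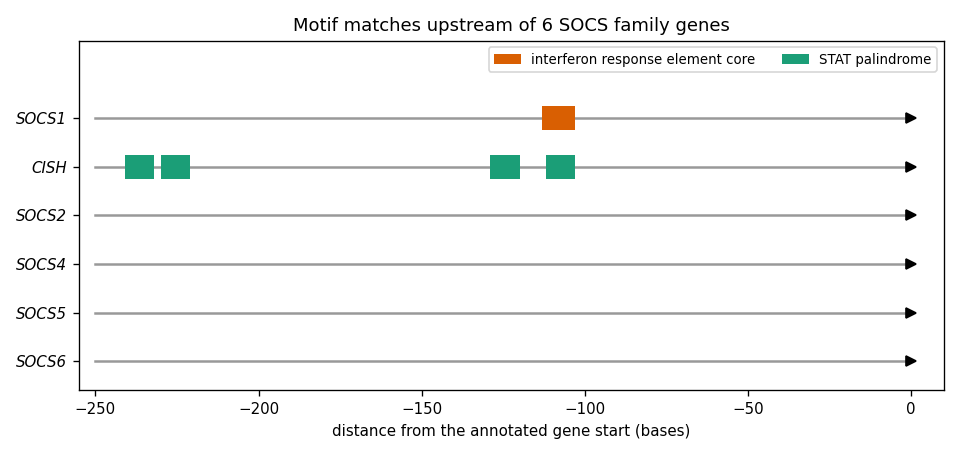
Positions of motif matches in the 250 bases before the annotated start of 6 SOCS family genes. The horizontal axis is the distance from the start in bases, each row is a gene, orange blocks mark the interferon response element core and green blocks the STAT palindrome. CISH carries 4 palindromes, SOCS1 the interferon core, and the other 4 genes drawn none of these.

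The authors counted reads over the last 500 bases of genes in another annotation, whose gene ends were not compared with those used here. In the last 500 bases of the gene as annotated here, the AU-rich pentamer ATTTA occurred 4 times in SOCS3. It occurred 2 times in SOCS4 and SOCS6, 1 time in SOCS2 and not at all in SOCS1, SOCS5 and CISH. Of the protein coding genes tested 5.486% had 4 or more copies, a cut set at the count of SOCS3, and the median gene had 1. The same stretch of SOCS1 overlaps RMI2 on the opposite strand and that of SOCS5 overlaps LINC01118 on its own strand. These overlaps are with the whole span of RMI2 and of LINC01118, and whether their own counted ends lie there was not checked. The strand setting of the counting was not stated, so reads of SOCS1 and RMI2 cannot be told apart with certainty. Reads of SOCS5 and LINC01118 cannot be told apart by strand under any setting.

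THP-1 cells expressed the family at very different levels. CISH, SOCS4 and SOCS6 were the most abundant, with medians over the 18 libraries of 14.2, 13.6 and 13.2 CPM. SOCS5 followed at 9.90 CPM, SOCS1 and SOCS3 at 3.45 and 3.26 CPM, and SOCS2 was lowest at 0.593 CPM. In each group SOCS1, SOCS3 and SOCS2 averaged below the other 4. CISH, SOCS4 and SOCS6 overlapped in every group except unstimulated SCR, where the CISH and SOCS4 libraries lay above those of SOCS6. SOCS1 and SOCS3 overlapped in every group except unstimulated SCR, where SOCS1 lay above SOCS3. One read stands for one transcript in this 3′ method, so transcript length does not enter these levels, although genes can differ in how well their ends are primed and annotated.

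**Figure D2:**
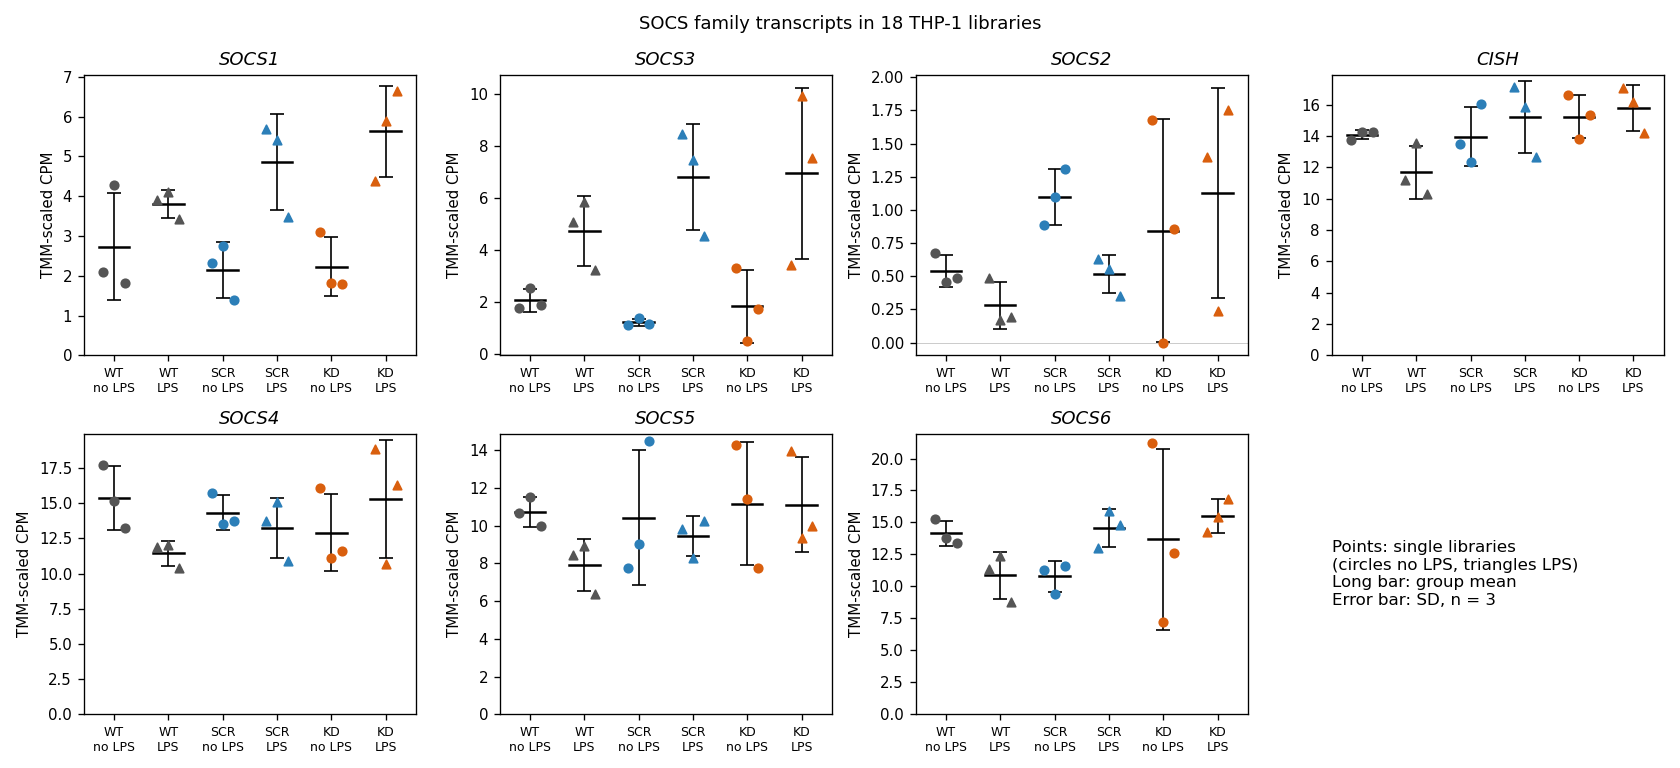
Level of each SOCS family member in every library. The vertical axis of each panel is TMM-scaled CPM on its own scale, points are single libraries (circles without LPS, triangles with LPS), long bars are group means and error bars the SD of 3 libraries. SOCS1 and SOCS3 sit higher with LPS in SCR and KD, and SOCS2 stays below 2 CPM.

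SOCS3 and SOCS1, the members with a kinase inhibitory region, were the only members that rose with LPS, and they passed the test in SCR and in KD but not in WT. Of the 7 members 2 rose and 0 fell in SCR, where 8.64% of all genes tested rose and 8.56% fell. In KD 2 members rose and 0 fell, beside 6.41% and 5.05% of all genes. In WT 0 rose and 0 fell, beside 7.01% and 7.26%. Under the stricter rule used in the study, a log2 change over 1 with an adjusted p of at most 0.01, applied to the edgeR fit, SOCS3 alone passed in SCR and in KD and 0 members in WT, where 3.29%, 2.06% and 2.99% of all genes passed. The same members passed it with DESeq2 on the compared libraries alone without the filter, which is closest to the processing of the study. The limit lay close to several values, since SOCS1 also met it with DESeq2 on the filtered genes in SCR (adjusted p = 0.00915) and KD (0.00348), and SOCS3 in WT and SOCS1 in KD (0.00425) met it with edgeR without the filter.

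SOCS3 measured 1.11, 1.37 and 1.16 CPM in the unstimulated SCR libraries and 8.45, 7.44 and 4.53 CPM with LPS. All 3 stimulated SCR libraries lay above all 3 unstimulated ones, a separation that 17.5% of all genes showed in this direction. The log2 fold change was 2.48 (SE 0.47, adjusted p = 0.000866), or 5.59-fold. In KD cells SOCS3 measured 3.29, 0.496 and 1.71 CPM without LPS and 3.41, 9.90 and 7.54 CPM with it. Here the groups nearly touched, since KD replicate 4 with LPS was barely above KD replicate 1 without, and 12.8% of all genes were separate in this direction. The KD increase was 1.90 on the log2 scale (SE 0.44, adjusted p = 0.00711), or 3.73-fold, and it missed the threshold without KD replicate 5 (1.56, adjusted p = 0.0555) and when only the KD libraries were fitted (adjusted p = 0.0730).

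In WT cells SOCS3 measured 1.75, 2.54 and 1.87 CPM without LPS and 5.06, 5.85 and 3.23 CPM with it. All 3 stimulated libraries were above all 3 unstimulated ones, as was so in the higher direction for 15.0% of all genes. The log2 difference was 1.22 (SE 0.45) with an adjusted p of 0.0732, above the threshold. The same difference passed it with DESeq2 (adjusted p = 0.0322), without the filter on low counts (0.00841) and with only the WT libraries fitted (0.0171). Thus 0 members were called in WT by the edgeR fit over all 18 libraries with the filter and 1, SOCS3, by each of these other fits, and 2 of the 7 had an unadjusted p under 0.05, against 26.5% of all genes.

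SOCS1 measured 2.31, 2.74 and 1.39 CPM in unstimulated SCR cells and 5.67, 5.42 and 3.47 CPM with LPS. It rose by 1.17 on the log2 scale (SE 0.35, adjusted p = 0.0235), or 2.24-fold, with no overlap between the groups. This call rested on few counts, 18 to 78 per library, and was lost when SCR replicate 1 (adjusted p = 0.0593), 3 (0.106), 4 (0.0881) or 5 (0.0801) was left out, with log2 values from 0.94 to 1.24. In KD cells SOCS1 measured 3.09, 1.82 and 1.79 CPM without LPS and 4.37, 5.88 and 6.63 CPM with it. The stimulated KD libraries were all higher, and the increase was 1.32 (SE 0.34, adjusted p = 0.0148), or 2.50-fold. It was lost without KD replicate 2 (0.0532), 3 (0.0718) or 6 (0.0593), with the log2 value staying at or above 1.19.

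In WT cells SOCS1 measured 2.09, 4.27 and 1.82 CPM without LPS and 3.89, 4.09 and 3.43 CPM with it. The unstimulated replicate 2 was as high as the stimulated libraries, so the groups overlapped. The difference was 0.53 (SE 0.35, 95% interval −0.19 to 1.25, adjusted p = 0.363). It was 0.96 without WT replicate 2 (adjusted p = 0.0838) and 0.29 without WT replicate 3 (adjusted p = 0.713).

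**Figure D3:**
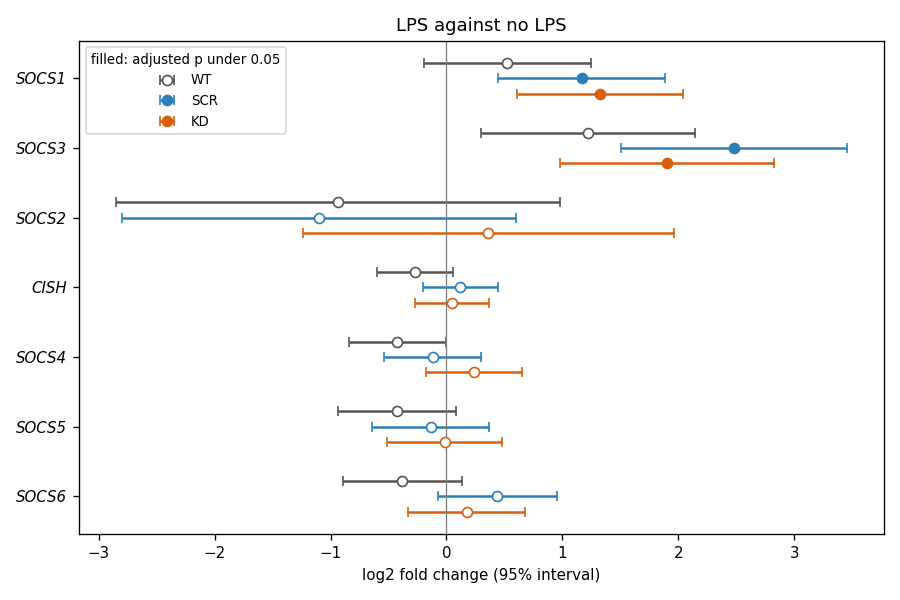
LPS response of each member within WT, SCR and KD. The horizontal axis is the log2 fold change of LPS against no LPS, points are estimates of the edgeR fit, bars are 95% intervals, and filled points have an adjusted p under 0.05. SOCS1 and SOCS3 in SCR and KD are the filled points, and the intervals of SOCS2 are the widest.

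SOCS1 and SOCS3 varied together across the libraries, with a Pearson r of 0.886 between their log2 CPM over 18 libraries that share the LPS groups. SOCS3 was the gene closest to SOCS1 among all genes tested, ahead of TMEM165 (0.877) and SLC30A1 (0.869). The genes closest to SOCS3 were PRPF39 (0.923), GRAMD2B (0.907) and PIK3AP1 (0.906). Within the family, the next highest r values were 0.704 between SOCS2 and SOCS4 and 0.594 between CISH and SOCS5. For the other members the closest genes were AVL9 for SOCS2 (0.806), HADHB for SOCS4 (0.817), ZNF436 for SOCS5 (0.759), TTC21B for SOCS6 (0.875) and BBIP1 for CISH (0.890).

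**Figure D4:**
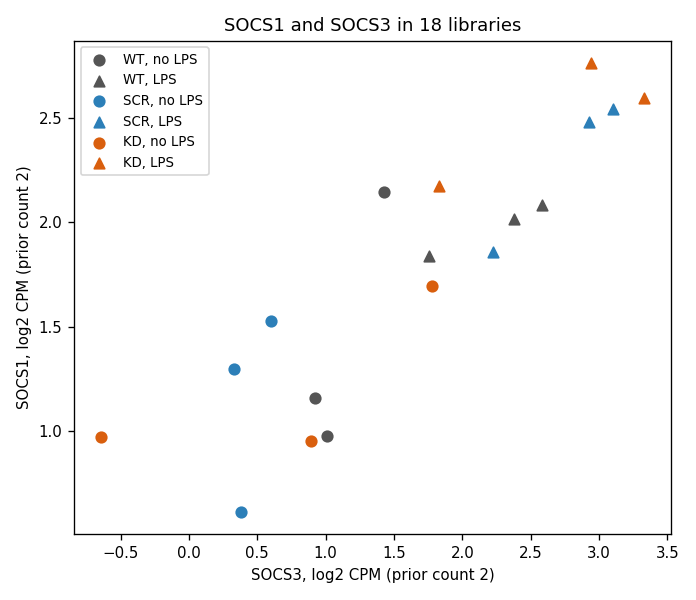
SOCS1 against SOCS3 in each of the 18 libraries. Both axes are log2 CPM with a prior count of 2, colours mark WT, SCR and KD, circles are libraries without LPS and triangles with LPS. The stimulated libraries lie to the upper right, and r over all 18 is 0.886, with the LPS groups contained in it.

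The levels of SOCS1 and SOCS3 can also be given as a share of the 7 matched members, without SOCS7. This share describes the same values and depends on the other members too. Together SOCS1 and SOCS3 held 6.35% ± 2.03 (SD, n = 3) of the counts of these members in unstimulated SCR libraries and 17.8% ± 3.40 with LPS. In KD the share was 6.73% ± 1.66 without LPS and 17.8% ± 6.51 with it, and in WT 7.97% ± 2.62 and 16.7% ± 0.98. The stimulated and unstimulated shares did not overlap in SCR, KD or WT. The other members were lower in WT with LPS, which raises this share. The summed level of the 7 members was 59.7 CPM without and 50.7 CPM with LPS in WT, 53.9 and 64.7 CPM in SCR, and 57.9 and 71.4 CPM in KD.

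The constitutively expressed members showed no change with LPS that passed the test. SOCS4, which is known to act on epidermal growth factor receptor signalling, measured 17.7, 15.2 and 13.2 CPM in unstimulated WT and 11.9, 12.0 and 10.4 CPM with LPS. The log2 difference was −0.43 (SE 0.20, adjusted p = 0.181). SOCS5, SOCS6 and CISH were likewise lower in all 3 stimulated than in all 3 unstimulated WT libraries, at −0.43, −0.38 and −0.27, with adjusted p from 0.277 to 0.358. A complete separation downwards was thus seen for 4 of the 7 members in WT, where 17.6% of all genes showed it. In SCR and KD the differences of SOCS4, SOCS5 and CISH ran from −0.14 to 0.23 and their groups overlapped.

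SOCS6, which binds receptor tyrosine kinases, did not pass the test for an LPS response in any condition. It measured 15.3, 13.8 and 13.4 CPM in unstimulated WT and 11.4, 12.4 and 8.81 CPM with LPS. In SCR it measured 11.3, 9.41 and 11.6 CPM without LPS and 13.0, 15.9 and 14.8 CPM with it. Every WT library was lower and every SCR library higher with LPS, with log2 differences of −0.38 (adjusted p = 0.358) and 0.44 (adjusted p = 0.248), and in KD the groups overlapped at 0.17. Of all genes 17.6% were separate downwards in WT and 17.5% upwards in SCR, and the share with both was not computed. The edgeR test of the difference between the 2 responses gave 0.82 (SE 0.35) with an adjusted p of 0.466.

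CISH, the founding member and a target of STAT5, stayed between 10.3 and 17.1 CPM in all 18 libraries, on 105 to 321 counts per library. Its LPS responses were −0.27 in WT, 0.12 in SCR and 0.05 in KD, with SEs of 0.15 to 0.16. CISH therefore had the narrowest intervals of the family, and the SCR interval ran from −0.21 to 0.44. 

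SOCS2, a feedback inhibitor of growth hormone signalling, was the lowest member, with 0 to 25 counts per library. WT replicates 5 and 6 with LPS and KD replicate 2 without had fewer than 3 counts. In SCR it measured 0.889, 1.10 and 1.31 CPM without LPS and 0.630, 0.556 and 0.354 CPM with it, and the groups did not overlap, as was so downwards for 19.8% of all genes. The difference was −1.10 (SE 0.82, adjusted p = 0.395). KD replicate 2 had 0 counts in a library where 3 counts correspond to 0.248 CPM, while KD replicate 1 had 1.68 CPM. The 95% interval of the SCR response ran from −2.80 to 0.60.

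Lowering TRAFD1 was not followed by a detectable change of any SOCS member. In KD against SCR 0 of the 7 members passed the test without LPS and 0 with LPS, by edgeR and by DESeq2, and 0 had an unadjusted p under 0.05 in either state. Across all genes, edgeR called 0.0660% without LPS and 0.00% with LPS, while 12.6% and 11.8% had an unadjusted p under 0.05. This background depended on the fit, as DESeq2 called 242 and 142 of 16678 genes and edgeR on the compared libraries alone 0 of 15230 and 161 of 15313. The libraries of KD and SCR overlapped for all 7 members in both states, whereas they were separate for 15.1% of all genes without LPS and 21.5% with it.

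For SOCS3 the KD minus SCR difference was 0.64 (SE 0.50, 95% interval −0.39 to 1.67) without LPS and 0.05 (SE 0.41, −0.79 to 0.90) with LPS. For SOCS1 it was 0.07 (−0.68 to 0.82) and 0.23 (−0.46 to 0.91). The SOCS3 interval without LPS reaches beyond the SOCS1 response to LPS in SCR, 1.17, so a change of that size is within it. CISH was bounded most closely, at 0.13 (−0.19 to 0.45) and 0.06 (−0.27 to 0.38), followed by SOCS4 at −0.15 (−0.56 to 0.26) and 0.20 (−0.22 to 0.62). SOCS5 gave 0.11 and 0.23, SOCS6 0.35 and 0.08, and SOCS2 −0.34 and 1.13. The adjusted p-values ran from 0.600 to 0.959 without LPS and from 0.607 to 0.973 with it.

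**Figure D5:**
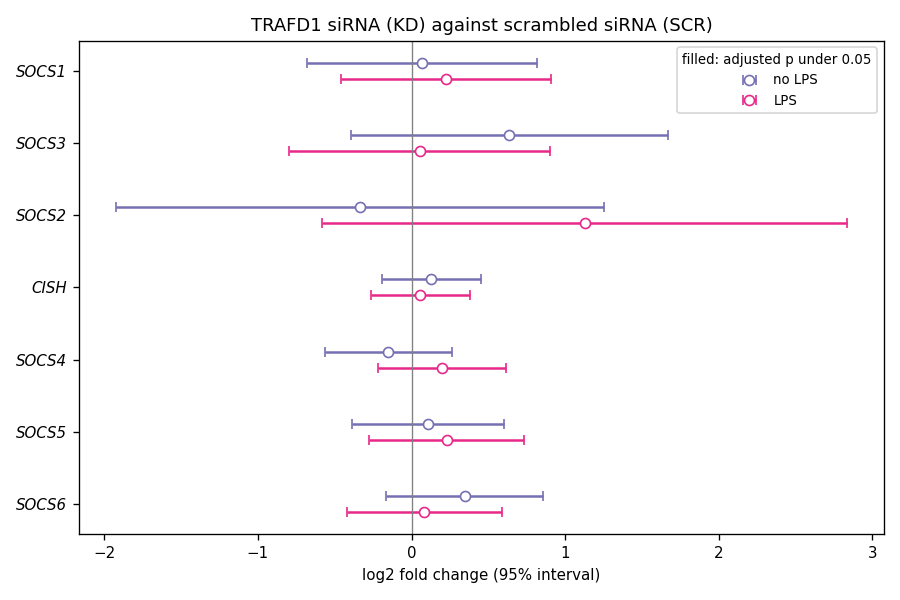
TRAFD1 siRNA against scrambled siRNA for each member. The horizontal axis is the log2 fold change of KD against SCR, points are estimates of the edgeR fit, bars are 95% intervals, and filled points would have an adjusted p under 0.05. No point is filled, and every interval includes 0.

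Replicates 1 and 2 of unstimulated KD differed more than any other replicate pair (chi-square over genes of 32.6 per degree of freedom, against 4.95 for the closest pair). KD replicate 1 was the highest of the 3 for all 7 members and for TRAFD1, and its members summed to 76.2 CPM against 45.8 and 51.6 CPM in replicates 2 and 3. SOCS6 ran from 7.19 to 21.2 CPM in this group. Without KD replicate 1, the unstimulated KD minus SCR value of SOCS3 moved from 0.64 to −0.11 and that of SOCS6 from 0.35 to −0.13, neither past the threshold. SOCS6 then also passed the test for a rise with LPS in KD (0.65, adjusted p = 0.0334, against 0.17 with all libraries) and for a larger response in KD than in WT (1.03, adjusted p = 0.0279). The calls over all genes grew in the same fit, from 1912 of 16678 to 3150 of 17181 for the KD response and from 60 to 1313 for the KD response minus the WT response. The part of this library in the KD values was not tested further.

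The LPS response of the family did not differ detectably between KD and SCR. Taking the KD response minus the SCR response, SOCS3 gave −0.58 (SE 0.64, 95% interval −1.92 to 0.75, adjusted p = 0.852) and SOCS1 0.16 (SE 0.49, −0.86 to 1.17, adjusted p = 0.957). Of the 7 members 0 were called by edgeR and 0 by DESeq2, and 0 had an unadjusted p under 0.05, against 0.00% called and 7.64% with an unadjusted p under 0.05 among all genes. For SOCS3, the SCR response minus the WT response was 1.26 (SE 0.64, −0.08 to 2.60, adjusted p = 0.519), and the KD response minus the WT response was 0.68 (SE 0.63, adjusted p = 0.646). For SOCS1 these were 0.64 (SE 0.49) and 0.80 (SE 0.49), and the first ran from 0.21 without unstimulated WT replicate 2 to 0.88 without unstimulated WT replicate 3. The rise of SOCS1 and SOCS3 in SCR and KD and its failure to pass the test in WT is thus not a shown difference between the conditions. Across all genes 0.234% were called for SCR against WT and 0.360% for KD against WT, and 0 of the 7 members were called in either by edgeR or DESeq2, with 1 member each at an unadjusted p under 0.05 (SOCS6 and SOCS4, beside 9.96% and 15.5% of all genes).

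Against WT, the siRNA-treated cells showed no member past the threshold. In SCR against WT 0 of 7 were called without LPS and 0 with LPS, by edgeR and by DESeq2, against 3.23% and 0.114% of all genes, and 0 and 1 had an unadjusted p under 0.05, against 17.2% and 13.7%. Without LPS, SOCS3 was lower in SCR by complete separation (−0.75, SE 0.49), as was SOCS6 (−0.39, SE 0.24), and SOCS2 was higher (0.99, SE 0.78), while 11.5% of all genes were separate downwards and 11.1% upwards. With LPS all 7 differences were above 0, from 0.21 for SOCS4 to 0.83 for SOCS2, as were 51.2% of all genes. The 7 values come from the same libraries and are not independent. CISH had the smallest adjusted p (0.37, SE 0.16, adjusted p = 0.313). SOCS6 was the only member separate from WT there, as 10.6% of all genes were in this direction. Same-numbered WT and SCR libraries with LPS deviated together, and taken as pairs 6 of the 7 members, all but SOCS5, were higher in SCR in each of the 3 pairs, as were 24.3% of all genes. With the replicate number as a block, CISH gave 0.37 (SE 0.15, adjusted p = 0.212) and 0 members were called, while the calls over all genes went from 19 to 135.

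In KD against WT with LPS, where 50.4% of all genes were above 0, all 7 differences were too, from 0.41 for SOCS4 to 1.96 for SOCS2. These share the WT libraries with the SCR values above. TRAFD1 itself was not detectably lower in this comparison (−0.23, SE 0.23, adjusted p = 0.563 by edgeR), and its libraries overlapped. SOCS1, SOCS5, SOCS6 and CISH were higher in every KD than in every WT library, a separation in this direction shown by 18.6% of all genes. CISH came closest to a call (0.43, SE 0.16, adjusted p = 0.0828). SOCS6 (0.51, SE 0.25, adjusted p = 0.194) was past the threshold only when the stimulated KD and WT libraries were fitted alone (0.49, adjusted p = 0.0477). Of the 7 members 0 were called by edgeR and 0 by DESeq2, against 10.8% of all genes, and 2 had an unadjusted p under 0.05, against 26.5%. Without LPS the KD minus WT differences ran from −0.25 to 0.65, with 0 called by edgeR, 0 by DESeq2 and 0 at an unadjusted p under 0.05, against 11.7% and 25.8% of all genes.

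Transcripts of most listed cytokines that engage this feedback were sparse at 4 h, whereas IL23A averaged 32.0 to 50.3 CPM with LPS. Of 22 listed ligands of JAK-coupled receptors only 9 had enough counts to be tested, of which 4 rose in WT and 2 each in SCR and KD, and 0 fell. These and the following counts stand beside 7.01%, 8.64% and 6.41% of all genes that rose and 7.26%, 8.56% and 5.05% that fell in WT, SCR and KD. EBI3, a subunit shared by heterodimeric cytokines, averaged at most 0.0914 CPM without LPS and 6.33 to 6.60 CPM with it. IL23A rose by 1.62, 1.57 and 1.03 on the log2 scale in WT, SCR and KD. IL6, a strong inducer of SOCS3 elsewhere, had 0 counts in every unstimulated library and 0 to 13 counts with LPS. IL10 had at most 6 counts in any library, and neither was tested.

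Among 24 tested receptor chains, 5 rose and 2 fell in WT, and 6 rose and 0 fell in SCR and in KD. IFNGR2, a chain of the interferon gamma receptor, rose by 1.23, 0.96 and 1.08 in WT, SCR and KD. IL10RA, the ligand-binding chain of the IL10 receptor, rose by 0.76, 0.82 and 0.56. IL6R fell by 0.58 in WT, while its values of 0.07 in SCR and −0.02 in KD did not pass the test.

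Of the 10 tested JAK and STAT genes 4 rose in SCR and 2 each in WT and KD, and 0 fell. STAT5A, the activator of CISH in many cells, rose by 1.80 (SE 0.13), 1.44 (SE 0.13) and 1.24 (SE 0.13) in WT, SCR and KD. STAT4 rose by 1.29, 1.92 and 1.14. STAT3, the main activator of SOCS3, rose by 1.05 in SCR (SE 0.25, adjusted p = 0.00587) and gave 0.57 in WT (adjusted p = 0.137) and 0.17 in KD (adjusted p = 0.707). Unstimulated KD replicate 2 held 96.6 CPM of STAT3 against 43.7 and 38.8 CPM in replicates 1 and 3. Without replicate 2 the KD value was 0.71 (SE 0.19, adjusted p = 0.0212). Without unstimulated replicate 1 or 3 it was −0.008 (adjusted p = 0.989) and −0.058 (adjusted p = 0.928). Leaving out a stimulated KD library gave 0.13 to 0.23, none past the threshold. JAK2 rose by 0.45 in SCR, and its values of 0.34 in WT and 0.19 in KD did not pass the test.

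Other inhibitors of the pathway moved in both directions. Of 13 tested, 3 rose and 2 fell in WT, 2 rose in SCR and 4 rose in KD. PTPN1, a phosphatase that dephosphorylates JAKs, rose by 0.93, 0.74 and 0.54 in WT, SCR and KD. PTPN2, a phosphatase related to PTPN1, rose by 0.58 in WT, and the ubiquitin ligase gene CBL fell by 0.55 there. Of the 8 genes for partners of SOCS proteins in the ubiquitin ligase, RNF7 fell by 0.37 in WT (adjusted p = 0.0492), CUL5 rose by 0.45 in SCR and 0 passed the test in KD, counts near the share over all genes.

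Of 15 tested genes for other proteins with a SOCS box, 1 rose and 1 fell in WT, 1 rose and 3 fell in SCR, and 1 rose and 2 fell in KD. The counts in WT are near the share over all genes for a list of this size. WSB1 rose by 0.90, 1.08 and 0.69, and SPSB3 fell by 0.70, 0.71 and 1.06 in WT, SCR and KD. Among 15 tested STAT target genes, 9 rose and 0 fell in each condition. CXCL10 averaged 2.26 CPM in unstimulated WT and 304 CPM with LPS. PIM1, a STAT-induced kinase, rose by 1.70, 1.53 and 2.07, and IRF1 by 0.70, 0.43 and 0.41. ICAM1 and BCL3, which rose in all 3 conditions, are also known targets of NF-kB.

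The median log2 response of the 7 members was −0.38 in WT, 0.12 in SCR and 0.23 in KD, beside −0.03, −0.03 and −0.003 over all genes tested. The STAT targets had medians of 0.70, 0.55 and 0.79. In KD against SCR, 0 genes of the pathway lists passed the test in either state. Over all genes the same fit called 0.0660% without LPS and 0.00% with it. With calls this rare, the 0 does not show that the lists were unaffected. The libraries are of bulk RNA, so a lower level cannot be told apart as fewer transcribing cells or less RNA per cell.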

How the data were processed

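RNA of 18 THP-1 samples was sequenced with QuantSeq, which reads the 3′ end of polyadenylated RNA. The authors trimmed reads, aligned them to GRCh37 with HISAT and counted them per Ensembl gene with featureCounts over the last 500 bases of genes, and deposited 1 table of raw read counts. The deposited counts were used as they are, and all 18 columns were mapped to samples by title. Total counts were 8206023 to 22344279 per library, at which 3 counts, the limit that a count of 0 allows, correspond to 0.134 to 0.366 CPM, a limit for counting error only.

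Identifiers were matched to GENCODE v44lift37, which gave 55665 of 63677 genes a symbol. Sequences were read from the GRCh37 genome, starting from the annotated ends of each gene. The filterByExpr function of edgeR 4.0.16 (R 4.3.3), applied by group, kept 16678 genes. A quasi-likelihood model with 6 group means and TMM scaling was then fitted over the whole series. For each of 12 contrasts, Benjamini-Hochberg correction covered every gene kept, and calls were made below 0.05. SEs were derived from the log2 fold change and the F statistic, and intervals are at 95%. The fit was tested on simulated data. Correlations used log2 CPM with a prior count of 2. With 3 libraries a group, library pairs of every group differed by more than counting noise, so no pair was treated as a single library deposited more than once.

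The members and gene lists were chosen with earlier results of these data known. All matched members are named, and a member is given with its test wherever it passed. Of each pathway list, the 3 genes with the smallest adjusted p in the WT response are eligible for naming, and IL6, IL10, JAK2, STAT3, PIM1 and IRF1 are named whatever their value. The values of 1 further gene under this rule and 1 upstream window are not reported here. The mention of CUL5 was added after its values were seen. Groups were compared unpaired. Replicate numbers were taken to pair samples only for WT and SCR with LPS, for which values with the number as a block are also given, since the deviations of all 3 same-numbered pairs correlated at 0.163 to 0.261. The lowest and highest such correlations of the other comparisons were −0.087 and 0.304. Alternatives were DESeq2 1.42.0, other scalings, no filter, separate fits, the call rule of the study, a replicate block and leaving out each library. Leaving out KD libraries for STAT3 and the count of pairs were added after seeing the data.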

Additional observations from a re-analysis of the deposited data

Results flagged for a closer look

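SOCS6 lay on opposite sides of its unstimulated level in WT and SCR with LPS, though neither response passed the test. All 3 WT libraries were lower with LPS and all 3 SCR libraries higher. SOCS6 was flagged for this pattern, so the pattern is how it was picked. Of all genes 17.6% were separate downwards in WT and 17.5% upwards in SCR, and the share with both was not computed. The SCR response minus the WT response was 0.82 on the log2 scale (SE 0.35), with an adjusted p of 0.466 in edgeR, so the difference did not pass the threshold over all genes.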

How the results depend on the processing

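The SOCS1 and SOCS3 responses in SCR and KD kept their direction under every alternative run. DESeq2, the fit without a filter on low counts, the fit of the compared libraries alone, and DESeq2 alone on those libraries without a filter each called 1 member in the WT response, SOCS3, in place of 0. Under the call rule of the study, a log2 change over 1 with an adjusted p of at most 0.01, the responses in SCR and in KD had 1 member each, SOCS3, since SOCS1 passed the first limit and not the second. With the compared libraries fitted alone, 1 member, SOCS1, was called in the KD response and 1, SOCS6, in KD against WT with LPS. Leaving out 1 library at a time gave 1 to 2 members called in the SCR response, 1 to 3 in the KD response and 0 to 1 in the KD response minus the WT response. The third member and the single one were SOCS6, in both cases without unstimulated KD replicate 1. The other counts stayed at 0 under all alternatives run, and a cause of these moves was not tested.

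Direction was followed for part of the member values, and those of KD against WT without LPS were not among them. Among the values followed, only leaving out a library turned a direction, and only for values that were not called. In unstimulated KD against SCR the ranges were −0.25 to 0.25 for SOCS1, −1.31 to 0.22 for SOCS2, −0.11 to 1.07 for SOCS3, −0.11 to 0.42 for SOCS5 and −0.13 to 0.65 for SOCS6. With LPS they were −0.29 to 0.37 for SOCS3 and −0.062 to 0.14 for CISH. For the SOCS6 response in KD the range was −0.12 to 0.65. For the KD response minus the SCR response they were −0.043 to 0.48 for SOCS1 and −1.01 to 0.16 for SOCS3. With the replicate number as a block, 0 members were called in the 9 contrasts it could be fitted to, the same as without it, and the lowest adjusted p was 0.0565 for CISH in KD against WT with LPS. No paired analysis was possible for the LPS responses because their groups share no replicate number. Over all genes the block moved the calls in KD against SCR from 11 to 183 without LPS and from 0 to 85 with it. SOCS2 had the fewest counts, 0 to 25 per library, and in unstimulated KD its spread was beyond counting error, with exact Poisson intervals of 0 to 0.305 CPM in replicate 2 and 1.09 to 2.48 CPM in replicate 1.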
